A study of Mus musculus with 8 samples.

Results

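The collagen VI chains described here are Col6a2 and Col6a3, which encode the alpha 2 and alpha 3 chains of collagen VI. They were taken from the deposited expression table by gene symbol alone, with 1 row for each symbol, so they make up 2 of the 22200 genes listed. Both passed the filter on low values and were among the 12673 genes tested.

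Collagen VI is a microfibrillar collagen of the extracellular matrix that fibroblasts secrete. Its alpha 1, alpha 2 and alpha 3 chains wind into a triple helix inside the cell, the helices join into larger assemblies before secretion, and these are laid down outside the cell as beaded filaments close to the cell surface and to basement membranes. The alpha 3 chain is the longest and is cut at its carboxy-terminal end, which releases the fragment endotrophin, and inherited loss of the main chains causes muscle and connective tissue disease.

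RNA was profiled in 8 libraries of immortalised mouse embryonic fibroblasts on a C57BL/6 background, all labelled TAF4-/-, so that the untreated controls carry the same genotype as the treated cells. TAF4 belongs to TFIID, the complex that recognises core promoters. The labels divide them into 3 untreated libraries taken at 12 h, 3 libraries treated with retinoic acid (RA), the ligand of the nuclear retinoic acid receptors, for 12 h, and 2 libraries treated for 72 h. No untreated cells of 72 h were analysed here, and RA and the longer time in culture cannot be told apart wherever a 72 h library is compared with another group. The study's methods name a single TAF4-null line for these cells, nothing in the labels says whether replicates came from separate cultures, and p-values therefore measure the spread between these libraries only. The titles of the libraries carry cl1, which resembles the name the study gives to its TAF4-expressing line, and the genotype label was followed. All values are normalised reads per gene with the same total in each library, so the depth of a library is unknown and no counting interval can be given. In bulk libraries, fewer cells that express a gene and less RNA per cell cannot be told apart.

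Before the members were compared, the libraries were checked against their labels. Taf4a, the gene labelled as inactivated, stood at 1055 to 1403 normalised reads in untreated cells, 984 to 1171 after RA for 12 h and 1369.63 to 1449.25 after RA for 72 h. The table does not say from which part of a gene its reads came, and the sources name different kinds of library, so these values could not be used to check the deletion. Of the 5 retinoid response genes tested, 5 were called higher at 12 h and 4 at 72 h. Over all genes tested, 1.11% were called higher at 12 h and 2.15% at 72 h. Of the fibroblast markers, 10 were in the table, with summed levels of 290654 to 303702 normalised reads in untreated cells, 277069 to 297332 after RA for 12 h and 269019 to 275036 after RA for 72 h. Vim was the highest of them, and Thy1 was near the lowest value of the table, with 1 to 3.5 normalised reads in the 8 libraries. Of the 9 tested, Pdgfra was called higher at 12 h (log2 change 1.49), against 1.11% of all genes tested. Postn (-1.47) and Col3a1 (-1.43) were called lower at 72 h, as both collagen VI chains were, against 1.52% of genes. The part of these markers in the changes of the chains was not tested. Markers of other cell types were low in all groups, with summed levels of at most 40.1 for the epithelial, 104 for the endothelial, 69.8 for the haematopoietic and 45.2 for the muscle lists. Most of these genes were too low to be tested, and 0 were called among the 1 of 6 epithelial, 4 of 5 endothelial, 1 of 5 haematopoietic and 1 of 5 muscle markers in the table that were. A call in either direction was made for 1.42% of all genes tested at 12 h and 3.67% at 72 h. Within groups, the libraries separated along a shared axis that held 50.1% of the within-group variance. The axis was computed from deviations from the group means. Every group therefore has libraries on both sides of it by construction, which is not a result. Side 1 held 4 libraries, namely replicates 1 and 2 of the untreated group, the third of RA 12 h and the second of RA 72 h, and side 2 held the rest. Changes within each side are given beside the main ones as a description. The axis was taken from these same libraries, and a side holds only 1 or 2 libraries of a group.

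Col6a3 (ENSMUSG00000048126) lies on the minus strand of chromosome 1, from 92663435 to 92740529 on assembly NCBIM37 (mm9), a span of 77.1 kb. Its transcript Col6a3-201 has 43 exons and 8762 bases, of which 7974 code for protein. Col6a2 (ENSMUSG00000020241) lies on the minus strand of chromosome 10, from 76058507 to 76086375, a span of 27.9 kb. Its transcript Col6a2-001 has 28 exons and 3949 bases, of which 3105 are coding. No other annotated gene overlapped either of them. Col6a1, which codes for the alpha 1 chain and lies 85.2 kb from Col6a2 on chromosome 10, was not analysed here.

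Promoter windows that RefSeq gives for both genes on GRCm38.p6 are shown here. They run from 250 bases before to 50 after the start site, 5′ to 3′ on the strand of the gene. Any part of these sequences in the changes described below was not tested. Capitals mark the matches found by a search for 6 short motifs on both strands.
Col6a3 promoter, chr1:90843922-90844221, minus strand: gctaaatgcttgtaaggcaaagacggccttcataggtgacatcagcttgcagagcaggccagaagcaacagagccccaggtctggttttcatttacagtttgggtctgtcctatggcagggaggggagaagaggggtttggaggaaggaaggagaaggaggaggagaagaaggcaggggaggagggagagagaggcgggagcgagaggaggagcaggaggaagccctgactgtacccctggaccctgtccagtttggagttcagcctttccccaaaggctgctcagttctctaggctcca
Col6a2 promoter, chr10:76623355-76623654, minus strand: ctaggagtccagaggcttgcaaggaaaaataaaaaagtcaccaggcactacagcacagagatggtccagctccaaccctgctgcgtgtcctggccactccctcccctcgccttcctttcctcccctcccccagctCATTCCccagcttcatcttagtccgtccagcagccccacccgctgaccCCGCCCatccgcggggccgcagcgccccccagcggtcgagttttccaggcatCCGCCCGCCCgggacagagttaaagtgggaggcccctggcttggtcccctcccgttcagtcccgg
The half-site bound by retinoic acid receptors was searched as AGGTCA, which 16.3% of 32851 promoter windows held on either strand. The AP-1 motif was searched as TGAGTCA and was held by 5.2% of windows. For TEAD factors the letters were GGAATG, held by 14.7%. The CCAAT box was held by 37.4% of windows. The GC box was searched as GGGCGG and held by 35.7%, and the TATA box as TATAAA, held by 13.6%. The Col6a3 window held none of these letters. The Col6a2 window held GGAATG, as CATTCC on the strand shown, at -115 from the start site and GGGCGG, as CCGCCC, at -67, -15 and -11, the last 2 of which overlap by 2 letters. A second RefSeq window for Col6a2, chr10:76623581-76623880, held CCGCCC at -175. The GC content was 56.3% for Col6a3, 64.3% for the Col6a2 window shown and 56.7% for its second window, beside a median of 52.7% over all windows. A match is a run of letters and not a measured binding site, and a missing match says only that these letters are not in the window.

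In untreated cells, Col6a3 was at 1438.5, 1218 and 1380.75 normalised reads in the 3 libraries, a mean of 1346 ± 114 (SD, n = 3). After RA for 12 h its values were 616.625, 540.5 and 656, a mean of 604 ± 58.7 (n = 3). After RA for 72 h they were 104 and 97.25, a mean of 101 ± 4.77 (n = 2). Every library treated for 12 h lay below every untreated library, which was so for 10.6% of genes tested. Both libraries treated for 72 h lay below all untreated libraries (19.4% of genes) and below all 12 h libraries (19.2%). In rank, Col6a3 went from place 1254 to 1513 of 22200 genes in untreated libraries to 2835 to 3350 after 12 h and to 7866 to 8029 after 72 h.

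Col6a2 was at 752.375, 942.125 and 1042.25 normalised reads in untreated cells, a mean of 912 ± 147 (n = 3). It was at 497.625, 489.125 and 505.75 after RA for 12 h, a mean of 498 ± 8.31 (n = 3), and at 231.25 and 212.125 after RA for 72 h, a mean of 222 ± 13.5 (n = 2). The order of the groups was the same as for Col6a3, again with no overlap, beside the shares of genes given there. The spread between replicates was widest in untreated cells, with a coefficient of variation of 16.1%, and narrowest after RA for 12 h, at 1.67%. Col6a2 went from place 1800 to 2501 in untreated libraries to 3536 to 3625 and then 5768 to 6010.

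**Figure D1:**
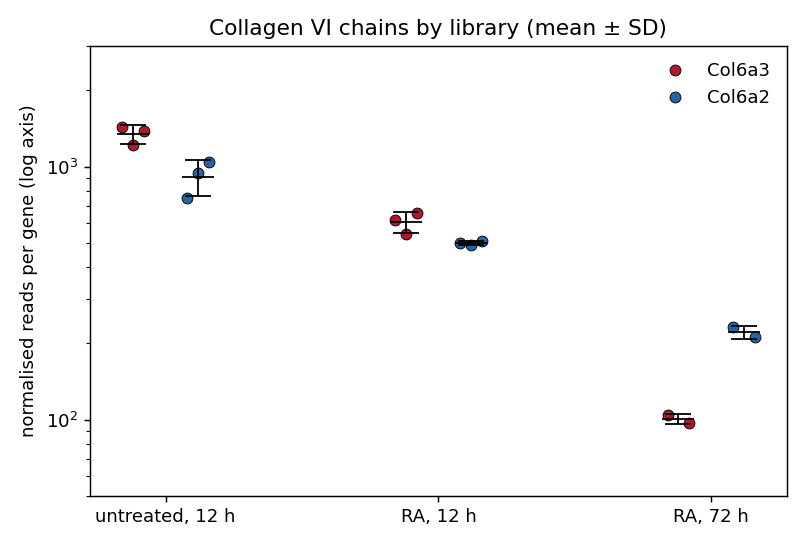
Normalised reads per gene (log axis) of Col6a3 and Col6a2 in each of the 8 libraries, as points, with the mean and SD of the group as bars. Col6a3 lay above Col6a2 in every untreated and 12 h library (lowest 540.5 against a highest 12 h Col6a2 of 505.75) and below it in both 72 h libraries (104 and 97.25 against 231.25 and 212.125).

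The first time point shows how far the chains had changed after 12 h of RA. Both were lower, Col6a3 to 44.9% and Col6a2 to 55.1% of the untreated level. Col6a3 fell 2.23-fold, with a log2 change of -1.15 ± 0.11 (SE, 95% interval -1.40 to -0.91, limma adjusted p 2.33e-05), or -1.01 among the libraries of side 1 and -1.26 among those of side 2. Col6a2 fell 1.82-fold, with a log2 change of -0.86 ± 0.12 (95% interval -1.13 to -0.60, limma adjusted p 0.000771), and -0.73 and -1.08 within the sides. All fold changes are on the scale of log2(value + 1). Calling a gene required an adjusted p below 0.05 together with a change of at least 2-fold. By this rule 1 of the 2 chains, Col6a3, was called lower, against 0.308% of all genes tested (1.42% in either direction). By adjusted p alone both passed, against 1.5% of genes. At a minimum of 3-fold neither chain was called, against 0.0947% of genes lower. The groups did not overlap for either chain, which was so, in the same direction, for 10.6% of genes. Ordered from the largest fall, Col6a3 was at place 38 and Col6a2 at place 110 of 12673 genes.

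After RA for 72 h, both chains were called lower than in untreated cells, against 1.52% of genes tested (3.67% in either direction, and 5.41% lower by adjusted p alone). Col6a3 was at 7.56% of its untreated level, a 13.2-fold fall (log2 change -3.73 ± 0.13, 95% interval -4.00 to -3.46, limma adjusted p 1.69e-09), with -3.75 and -3.72 within the sides. Col6a2 was at 24.6%, a 4.07-fold fall (log2 change -2.02 ± 0.14, 95% interval -2.32 to -1.73, limma adjusted p 9.32e-07), with -1.98 and -2.17 within the sides. The places from the largest fall were 3 for Col6a3 and 29 for Col6a2. Non-overlap in this direction was found for both chains and for 19.4% of genes. Of all genes, 0.529% were lower at least 3-fold with an adjusted p below 0.05, and both chains were past that size.

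Between 12 h and 72 h of RA, both chains fell further and were called, against 0.734% of genes called lower (2.92% by adjusted p alone). At a minimum of 3-fold Col6a3 was called and Col6a2 was not, against 0.189% of genes. Col6a3 fell 5.94-fold (log2 change -2.57 ± 0.13, 95% interval -2.84 to -2.30, limma adjusted p 3.45e-07), or -2.74 among the libraries of side 1 and -2.46 among those of side 2. Col6a2 fell 2.24-fold (log2 change -1.16 ± 0.14, 95% interval -1.46 to -0.87, limma adjusted p 0.000251), with -1.25 and -1.09 within the sides. They were at places 4 and 78 from the largest fall. Neither chain overlapped between these groups, beside 19.2% of genes. The comparisons share libraries, so the 3 changes of a chain are not independent of each other.

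The proportion of the chains was compared within each library. The ratio of Col6a3 to Col6a2 within a library was 1.91, 1.29 and 1.32 in untreated cells, 1.24, 1.11 and 1.30 after RA for 12 h, and 0.450 and 0.458 after RA for 72 h. The group means were 1.51 ± 0.349, 1.21 ± 0.0985 and 0.454 ± 0.00617 (SD). The ratios of untreated and 12 h libraries overlapped, and both 72 h ratios lay below all the others. Over all 3 groups the log2 ratio differed by an exact permutation test (p = 0.00714 over 560 assignments, smallest p possible 0.00357, adjusted p 0.0286 over the 4 tests of the ratio). The call rests on nearly all libraries: with 1 library left out, the adjusted p of this exact permutation test was 0.0381 without untreated replicate 2 and lay between 0.0762 and 0.2 in the 7 other cases. Without either 72 h library it could not have gone below 0.0571. Between pairs of groups, RA 72 h differed from untreated cells by -1.70 in log2 ratio and from RA 12 h by -1.41, each with an exact permutation p of 0.1 (two-sided), which is the smallest that 10 assignments allow. RA 12 h differed from untreated cells by -0.29 (exact permutation p = 0.2, smallest possible 0.1). A ratio within a library shows that the genes changed unequally and does not give the change of either.

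**Figure D2:**
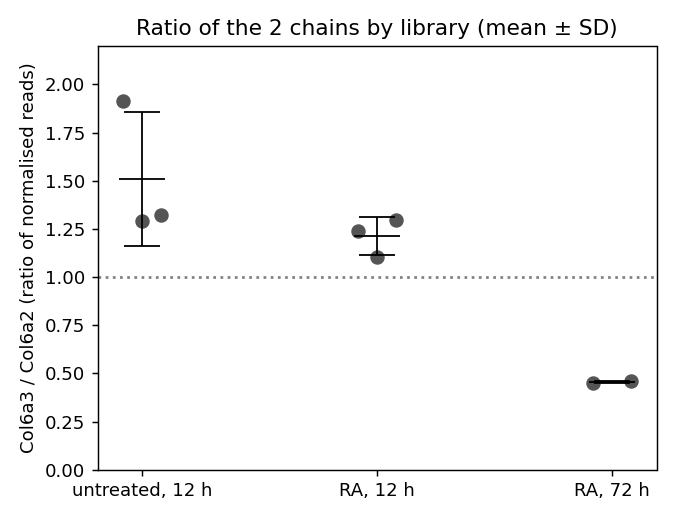
Ratio of Col6a3 to Col6a2 normalised reads in each of the 8 libraries, by group, with mean and SD as bars and a dotted line at equal values. The 6 untreated and 12 h libraries lay between 1.11 and 1.91, and the 2 libraries at 72 h at 0.450 and 0.458.

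How the levels of the chains compare depends on what a read stands for, which the sources do not settle. If reads came from the whole transcript, levels are compared per length, and if each transcript gave a tag at a single site, as the labels describe, no division by length applies and the undivided values above are the levels. Under the first reading, the order of the chains in untreated cells depended on the length used. Per kb of the transcripts named above, Col6a2 was at 231 ± 37.3 and Col6a3 at 154 ± 13.0 normalised reads in untreated cells. Per kb of all annotated exons merged, the levels were 110 and 113, closer than the SD of either. After RA for 72 h Col6a2 was the higher of the pair on both scales, with 56.1 against 11.5 per kb of transcript and 26.6 against 8.42 per kb of merged exons. Among 40 collagen genes with a transcript length, ordered by level per kb of transcript, Col6a2 was at place 6 in untreated cells, 11 after RA for 12 h and 12 after RA for 72 h, and Col6a3 at places 7, 13 and 17. These places hold only under the first reading, and some are close. In untreated cells Col6a3 was at 153.6 and Col4a2 at 153.3. After RA for 72 h Col6a2 was at 56.1 and Col11a1 at 54.5. Both gaps were smaller than the SD of the chain (13.0 and 3.42).

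Of the chains that can take the place of alpha 3 in the trimer, Col6a4 and Col6a6 were found in the table by Ensembl identifier, under the older symbols 1110001D15Rik and E330026B02Rik. Col6a4 was at 15.2 ± 5.72, 12.7 ± 4.19 and 15.8 ± 1.24 normalised reads in untreated, RA 12 h and RA 72 h libraries, with log2 changes from untreated cells of -0.22 at 12 h and 0.12 at 72 h (limma adjusted p 0.803 and 0.899). Col6a6 was at 10.2 ± 3.61, 10.7 ± 4.48 and 15.1 ± 3.62, with log2 changes of 0.06 and 0.57 (limma adjusted p 0.961 and 0.484). Neither passed the test in any comparison. Col6a5 was not analysed here.

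The receptors that bind collagen VI at the cell surface gave no called gene among the 7 tested of 9 in the table, in any comparison. Over all genes tested, 1.42% were called in either direction at 12 h, 3.67% at 72 h and 1.5% between 12 h and 72 h. By adjusted p alone, Antxr2, an anthrax toxin receptor that binds collagen VI, rose at 12 h and at 72 h against untreated cells. Its values were 803.75 to 1018.5 normalised reads in untreated cells, 1446.38 to 1546.88 after RA for 12 h and 1671 to 1809.13 after RA for 72 h, with log2 changes of 0.70 and 0.93 (limma adjusted p 0.00108 and 0.000158). The related Antxr1 had a mean of 736 in untreated cells and 442 at 72 h, a log2 change of -0.73 (limma adjusted p 0.00151). Cspg4, the NG2 proteoglycan, went from 125 to 72.7 at 12 h and 83.7 at 72 h, with log2 changes of -0.78 and -0.58 (limma adjusted p 0.00681 and 0.0387). Itgb1, the shared beta chain of collagen-binding integrins and the highest of the list, had means of 3881, 3608 and 4009. The median log2 change of the receptors was -0.10 at 12 h and -0.03 at 72 h, beside -0.02 over all genes at both times.

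The matrix partners are proteins that collagen VI filaments touch, such as fibrillar collagens, biglycan and matrilins. Of 15 listed genes, 11 were tested, and 0 were called at 12 h and 1 at 72 h. That gene was Col3a1, a fibrillar collagen, which fell from 21176 ± 1083 normalised reads to 7868 ± 287 (log2 change -1.43 ± 0.13, limma adjusted p 8.25e-06). By adjusted p alone, Bgn (biglycan, -0.67), Matn2 (matrilin, -0.92) and Col1a2 (-0.47) also fell at 72 h. Col1a1 was the highest of the list. The median log2 change was -0.47 at 72 h, beside -0.02 over all genes, and -0.03 at 12 h.

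For the folding and modification of collagen chains in the cell, 23 symbols were looked up. Of these, 17 genes were found in the table and tested, and 0 were called in any comparison. The shares called in either direction over all genes tested were 1.42% at 12 h, 3.67% at 72 h and 1.5% between them. At 72 h against untreated cells, P4ha1, a subunit of prolyl hydroxylase, rose by adjusted p alone (log2 change 0.61, limma adjusted p 0.0237), and P4hb, its partner subunit, fell (-0.42, limma adjusted p 0.04). Serpinh1, the collagen chaperone and the highest of the list, varied between 7062 and 13529 normalised reads within untreated cells. Of the 4 tested proteases of collagen VI none was called, and Mmp14, a membrane-bound metalloproteinase and the highest of them, had means of 2428, 2723 and 2374. The medians of the folding list were 0.01 and -0.06, and those of the proteases 0.13 and -0.06, at 12 h and 72 h.

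**Figure D3:**
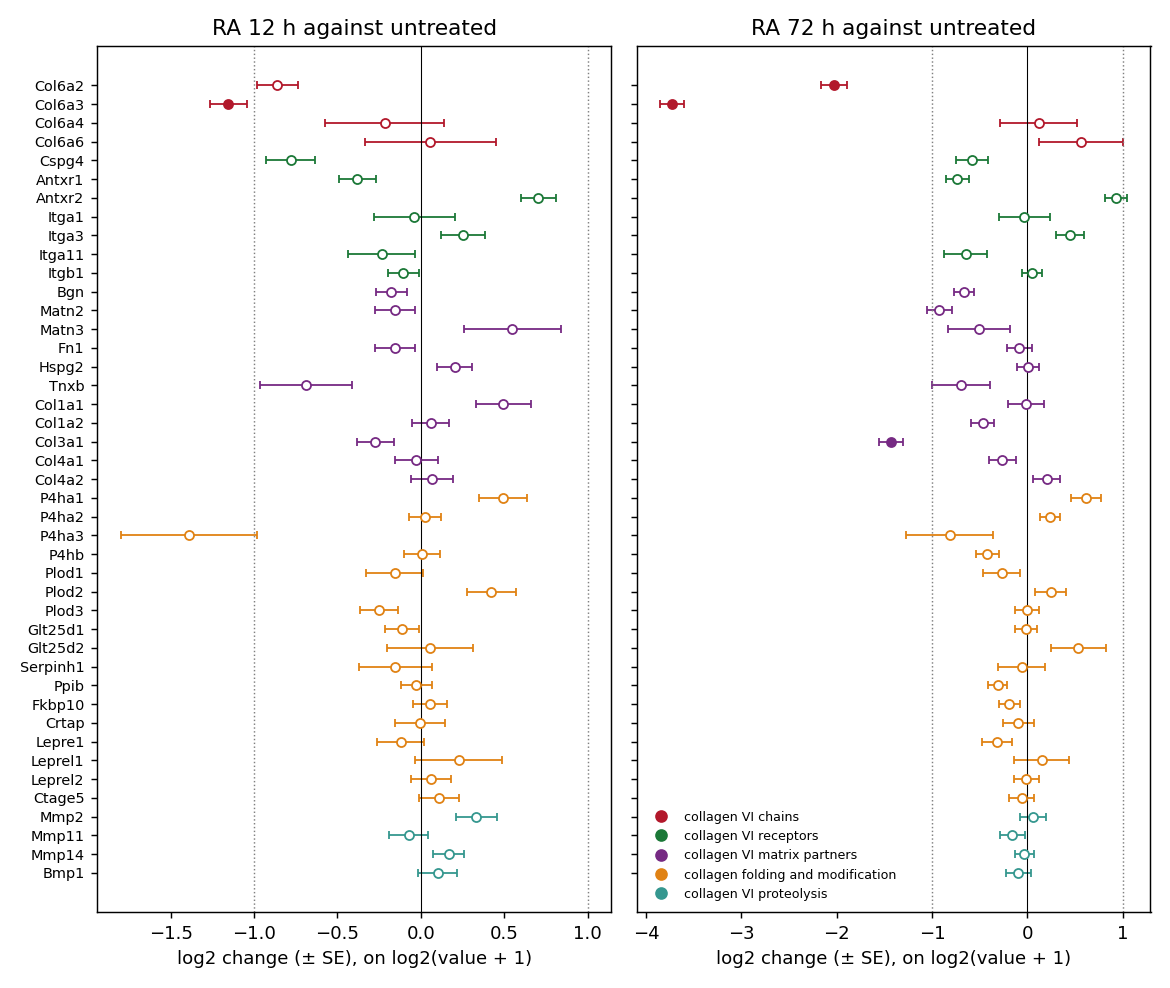
Log2 changes (± SE) of the tested chains, receptors, matrix partners, folding enzymes and proteases of collagen VI, at 12 h (left) and 72 h (right) against untreated cells, with filled points for called genes and dotted lines at 2-fold; the axes of the panels differ. Col6a3 at -1.15 was the only filled point at 12 h, and at 72 h the filled points were Col6a3 (-3.73), Col6a2 (-2.02) and Col3a1 (-1.43).

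Among the other collagens, 37 were in the table and 30 were tested. At 12 h 0 were called lower and 1 higher, Col8a1, a short-chain network collagen, with 578 ± 39.1 normalised reads in untreated cells and 2096 ± 354 after RA (log2 change 1.84). At 72 h, 4 were called lower than in untreated cells, Col5a3 (-1.96), Col7a1 (-1.63), Col3a1 (-1.43) and Col11a1 (-1.15), and 2 were called higher, Col8a1 (1.79) and Col14a1 (1.19). Over all genes tested, 1.11% were called higher at 12 h, 2.15% at 72 h and 0.765% between 12 h and 72 h. The shares called lower were 0.308%, 1.52% and 0.734%. The 4 collagens lower at 72 h were also the collagens other than the members called lower between 12 h and 72 h. Among them Col7a1, the collagen of anchoring fibrils, was at -2.18. The median change of the 30 was 0.06 at 12 h and 0.01 at 72 h. Counting all 34 collagens tested, Col6a3 and Col6a2 had the largest and the next largest fall at 12 h and at 72 h against untreated cells. Between 12 h and 72 h, Col6a3 had the largest fall and Col6a2 was at place 5. At 12 h the 95% interval of Col6a2 (-1.13 to -0.60) held the value of Col4a6, a basement membrane collagen (-0.81 ± 0.16, limma adjusted p 0.00803), and at 72 h its interval (-2.32 to -1.73) held the value of Col5a3, so the second place of Col6a2 is not beyond error at either time.

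**Figure D4:**
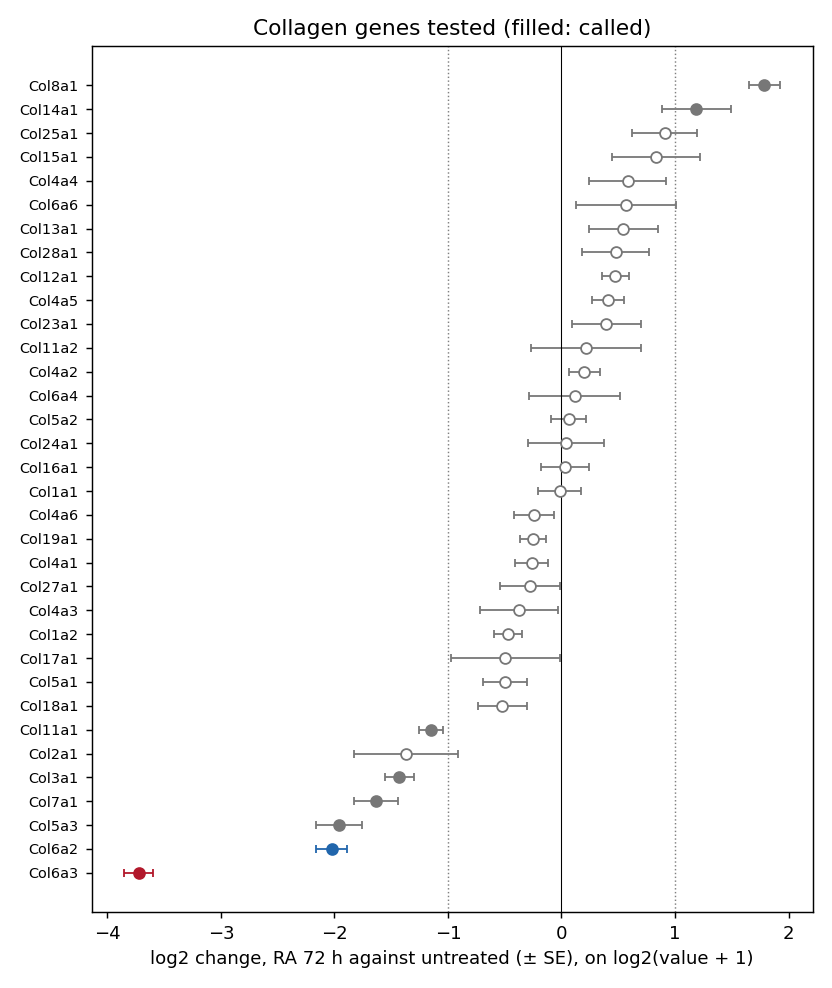
Log2 change (± SE) between RA 72 h and untreated cells of the 34 collagen genes tested, in order, with filled points for called genes and dotted lines at 2-fold. Col6a3 (-3.73) stood apart at the lower end, next to Col6a2 (-2.02) and Col5a3 (-1.96), and Col8a1 (1.79) was at the upper end.

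The genes whose pattern over the 8 libraries was most like that of the chains were found by Pearson's correlation of log2(value + 1), among 384 genes with a mean of at least 50 and a highest group mean at least 2 times the lowest. The libraries fall into 3 groups, so the correlation mostly reflects the order of the group means, and it is given as a description. For Col6a3 they were Mme (neprilysin, 0.994), Il1rl1 (an interleukin receptor, 0.992), Slpi (a secreted protease inhibitor, 0.989), Penk1 (proenkephalin, 0.988) and Dact2 (0.987), with Col6a2 at place 18 (0.974). For Col6a2 they were Hsd17b11 (0.986), Penk1 (0.985), Slpi (0.981), Mme (0.979) and Dact2 (0.977), and Col6a3 followed at place 6. The genes were alike in order and not in size. At 72 h against untreated cells Penk1 had a log2 change of -4.44, Slpi -2.90, Dact2 -2.80, Il1rl1 -2.46, Mme -1.71 and Hsd17b11 -1.07.

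**Figure D5:**
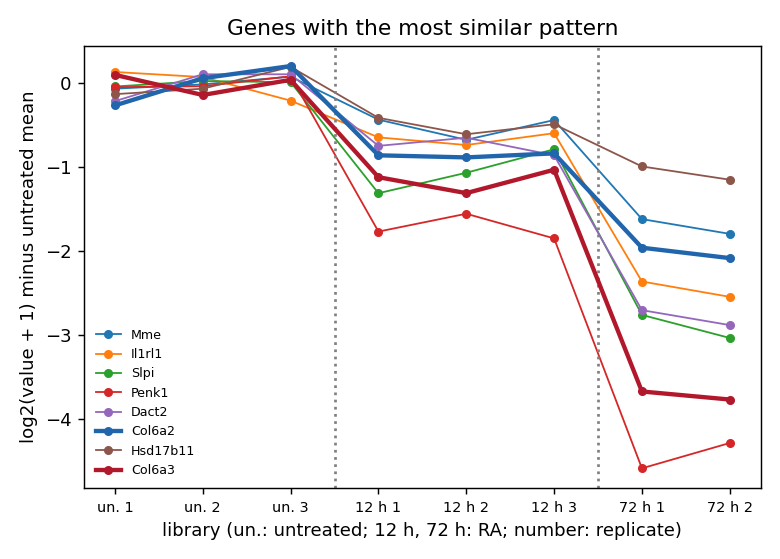
Log2(value + 1) minus the untreated mean of the gene, over the 8 libraries, for Col6a3 and Col6a2 (thick lines) and the 6 genes most like them. All lines fell in 2 steps, and at 72 h Col6a3 lay between Penk1 and the other genes, while Col6a2 lay between Il1rl1 and Mme.

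Genes beside the chains on their chromosomes were described by the same calls. Such calls, in either direction, were made for 1.42% of all genes tested at 12 h, 3.67% at 72 h and 1.5% between them. With so few neighbours the counts are a description only. Of the 10 nearest genes of Col6a3 in the table, 6 were tested and 0 were called in any comparison, and the tested neighbours closest on each side were Cops8 at 153.5 kb (log2 change -0.23 at 72 h against untreated cells) and Lrrfip1 at 154.8 kb (0.12). Of the 10 nearest genes of Col6a2, 7 were tested. At 72 h against untreated cells, A130042E20Rik had a change of 0.25, Lss, 38.6 kb away, of -0.25, Mcm3ap -0.10, Pcbp3 -0.13, Slc19a1 -0.26 and Col18a1, another collagen, -0.52, none of them called. The 1 called neighbour was AC155176.6, 634 kb away, which was lower at 72 h than in untreated cells, with 28.75, 21.5 and 24.875 normalised reads against 4.125 and 15.875 (log2 change -1.48, limma adjusted p 0.0426). In that comparison 1.52% of all genes tested were called lower.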

How the data were processed

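Expression was measured in 8 libraries, grouped by their labels. The authors deposited normalised reads per Ensembl gene with decimal commas, recorded here as a score and not as counts. The sorted deposited values were identical in all 8 columns and 100% of values below 1000 were multiples of 0.125, so they are quantile normalised and library depth is lost. The lowest value was 1 and each column summed to 9442018.6. The deposited group averages and log2 ratios were not used as results. Per the labels the libraries are DpnII tag profiles; the study's methods describe fragmented RNA aligned with Tophat, Cufflinks and Ensembl models and normalised by the authors with DESeq. The genome build in the submitters' processing notes is mm9. The labels and the study's results both give 72 h, which was followed, while its methods give another time. The design text counts fewer samples than the 8 listed.

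Genes with a mean of at least 10 were tested (12673) with limma 3.58.1 in R 4.3.3 on log2(value + 1), with a variance trend, all 3 groups in one fit, two-sided, with Benjamini-Hochberg adjustment. Genes were called at an adjusted p below 0.05 with at least a 2-fold change. The chain ratio was tested by exact permutation of libraries (Python 3.11.15, numpy 2.4.6, pandas 2.3.3), on log2 of the ratio with 1 added to each value. On simulated data, with 12673 genes and log2 changes of 2, 195 of 200 changed genes were recovered at 12 h against untreated cells, 197 of 200 at 72 h and 388 of 400 between 12 h and 72 h. False calls numbered 2, 3 and 4. The simulated noise was independent between libraries and genes, without the shared axis of the real libraries. Its changes were larger than those of either chain at 12 h, so recovery at smaller sizes was not tested. Alternatives changed the pseudocount (10 or 0.5), filter, scaling, replicate block, side term, background, variance trend, groups fitted, fold minimum and libraries. Coordinates are from the NCBIM37 annotation, which held 21465 of 22200 identifiers (96.7%), and 4 list genes listed under other symbols were found by identifier. For 1 of these, Tnxb, the table pairs the identifier with the symbol Clcn1. The genes named are the members, the other chains, list members called in any comparison or highest in their list, the 5 genes most like each member, the 5 nearest on each side and the library checks; list genes that passed the adjusted p alone were named after their values were seen. Members and lists were chosen with earlier results of these data known.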

Additional observations from a re-analysis of the deposited data

Results flagged for a closer look

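The difference between RA 72 h and RA 12 h was tested for both chains and passed. It was -2.57 on the log2 scale for Col6a3 and -1.16 for Col6a2. For both, 2 of 2 libraries at 72 h lay below all 3 at 12 h, which was so for 19.2% of genes tested. Time in culture and the length of RA treatment cannot be told apart here. No group had enough libraries for a search for single outlying values.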

How the results depend on the processing

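Over the members' changes and the ratio, 122 of 132 alternative values kept their direction and side of the threshold, and 0 reversed. Some of these alternatives could not move the value. These include those that left out a library outside the comparison or changed only the fold minimum. Without a fold minimum Col6a2 at 12 h was called (-0.86), and at 3-fold Col6a3 at 12 h (-1.15) and Col6a2 between 12 h and 72 h (-1.16) were not. Over the other settings the largest limma adjusted p was 0.0164 for Col6a2 and 0.00209 for Col6a3. Leaving out each library in turn gave -0.99 to -0.76, -2.16 to -1.92 and -1.23 to -1.10 for Col6a2, and -1.22 to -1.08, -3.80 to -3.68 and -2.65 to -2.51 for Col6a3, at 12 h, at 72 h and between them. The log2 ratio at 72 h against untreated cells ranged from -1.80 to -1.52 with libraries left out. The adjusted p of the exact permutation test over all 3 groups, 0.0286, went to between 0.0762 and 0.2 in 7 of 8 such cases, all but the one without untreated replicate 2 (0.0381), and stayed below the threshold under the other settings. The counts of genes called were 180, 465 and 190. They were 554, 1456 and 740 without a fold minimum and 59, 165 and 41 at 3-fold, as those rules construct, and 297 at 72 h with a mean of at least 50, which tests fewer genes. Leaving out libraries gave 148 to 322, 357 to 641 and 150 to 211, with 322 called at 12 h without untreated replicate 3, whose cause was not tested.

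Whether the replicate numbers pair the libraries is not known, and the main fit left them unpaired. Same-numbered libraries had correlations of their deviations from the group mean between -0.474 and 0.420. Deviations within such small groups depend on each other, so these correlations cannot decide it. With the replicate number as a block, the counts were 174, 430 and 172, Col6a2 was at -0.86, -1.97 and -1.11 and Col6a3 at -1.15, -3.68 and -2.53, and the block changed no call of either chain. Depth is unknown, and 2 libraries at 72 h limit every comparison with them.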

Other observations

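If reads fall along the whole span of a gene, they weigh more on long, low genes. The 25th percentile of normalised reads per Mb over genes of at least 100 kb, multiplied by the span of Col6a3, came to 0.57% to 0.85% of its value in untreated libraries, 1.36% to 2.14% after RA for 12 h and 9.88% to 11.9% after RA for 72 h. For Col6a2 it stayed between 0.27% and 1.93%. With this amount subtracted, the log2 change of Col6a3 at 72 h was -3.88. For Col6a4 the same amount came to 72.6% to 187% of the value of a library, and for Col6a6 to 98.0% to 248%, so the levels of these genes were near that background.

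The untreated library with the lowest Col6a2 (752.375 normalised reads) was also the one with the highest Col6a3 (1438.5), which gave its ratio of 1.91 against 1.29 and 1.32 in the other untreated libraries.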
